A study of Mus musculus with 2 samples.

Results

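The 5 small RNAs described here are sequences listed as mouse piRNAs that lie within small nucleolar RNAs (snoRNAs), outside the host genes Snhg1 and Gas5: mmu_piR_004086, mmu_piR_000705, mmu_piR_030130, mmu_piR_000267 and mmu_piR_003399. They are 5 of the 39986 annotated piRNAs in the deposited tables and 5 of the 90 that had a read in at least 1 library. They were selected on their read counts and abundance ratios in these same libraries and on the transcripts they match, so their levels are given as a description and no test is attached to them. The data come from GC-1 cells, an immortalised mouse spermatogonial line, in 2 libraries of small RNA from total RNA. The control library came from cells kept for 24 h at 0 nM MC-LR and the exposed library from cells kept for 24 h at 500 nM MC-LR. MC-LR is microcystin-LR, a cyanobacterial toxin that inhibits protein phosphatases. Both groups are the same line in the same serum-supplemented medium, and each is 1 library, so there is no replicate check. Intervals are 95% intervals of counting error alone. The reads carry no molecular identifiers and copies made by PCR are not separate molecules, so these intervals compare 2 libraries and not the 2 conditions. The libraries are bulk, so a level shared by all cells and a level carried by some of them cannot be told apart. The tables hold piRNA names alone, and the labelled cell type was not checked against marker genes.

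Box C/D snoRNAs are short RNAs of the nucleolus that guide the methylation of ribosomal RNA and other RNAs. In mammals most of them are cut out of introns of host genes, many of which encode parts of the ribosome or of its assembly machinery. They are defined by a box C near the 5′ end and a box D near the 3′ end, usually with a second, inner pair called C′ and D′. The bases just before box D or D′ pair with the target RNA. Cells also contain shorter stable pieces of snoRNAs, and piRNA collections are known to list some of them beside true piRNAs of the germ line. A typical primary piRNA starts with U.

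The annotated sequences of 4 of the 5 are shown first because what they share is visible in the letters. They are written with T, which is U in the RNA. Capitals mark each GATGA, the core of box C or C′, and each CTGA, the usual box D or D′.

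mmu_piR_004086 (Snord57): tggaaagGATGAacgaacttggcCTGAcc

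mmu_piR_000705 (Snord15a): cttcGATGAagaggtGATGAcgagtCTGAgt

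mmu_piR_003399 (Snord21): tgccaatGATGAcaccacactaaCTGAgc

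mmu_piR_030130 (Snord17): caccaaGATGAgtggtgcaaatCTGAtc

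All 5 sequences held a CTGA within their last 6 nt, a window that was not set in advance. Each of the 4 shown ended 2 nt after it. Of the 76 detected piRNAs outside snoRNA entries, 9 (11.8%) held a CTGA anywhere and 0 held one within their last 6 nt. The 3 snoRNA piRNAs of Snhg1 and Gas5 (mmu_piR_025007, mmu_piR_012107 and mmu_piR_034793) all ended 2 nt after such a motif. The motif GATGA, searched after the sequences had been seen, was found in 4 of the 5, those shown, and in 3 of the 76 (3.95%). The longer form TGATGA was found in mmu_piR_000705 and mmu_piR_003399, against 2 of the 76 (2.63%). GATGA was also found in other snoRNA piRNAs. It was found in 1 of the 3 of Snhg1 and Gas5 and in 2 of 6 others, and so was TGATGA. Those 2 lie in Snord85 and Gm22980. Of the 6, 3 are also annotated as miRNA hairpins, and none of the hairpins held GATGA. For the other snoRNA family only AGANNA and ACA were searched, and no wider form of its boxes. AGANNA was found in 1 of the 5 and ACA in 1, against 15.8% and 13.2% of the 76. Motifs were searched as written on the strand of the piRNA, and a TGATGA also counts as a match to its shorter core. The members were chosen in part by the transcripts they match, and boxes C and D define box C/D snoRNAs. A higher share of GATGA and CTGA than outside snoRNA entries is therefore partly built into the choice. A match describes these letters and is not evidence of a bound protein.

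Positions are from an exact match to GENCODE M21 (GRCm38), which is not the mm8 build named in the submitters' processing notes. mmu_piR_004086 lies at chr2:130278016-130278044 (plus strand) and covers bases 1 to 29 of the 72 of Snord57. The snoRNA sits in an intron of Nop56, which encodes a core protein of box C/D snoRNPs. All 4 coding transcripts of Nop56 that span the fragment have it in an intron, and 1 of 5 retained-intron transcripts holds it in an exon. RefSeq annotates a shorter Snord57 of 63 bases, in which the fragment starts 10 nt upstream of base 1. mmu_piR_000705 lies at chr7:99482902-99482932 (minus strand) and covers bases 1 to 31 of the 148 of Snord15a, in an intron of all 5 spanning transcripts of Rps3, a protein gene of the small ribosomal subunit. mmu_piR_000267 lies within Snord1a.

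A search of whole transcripts places mmu_piR_003399 in a retained-intron transcript of Rpl5, a protein gene of the large ribosomal subunit, whereas its coordinates place it on a snoRNA. The fragment lies at chr5:107904554-107904582 (plus strand), and Snord21 is annotated at chr5:107904555-107904648 on the same strand, in GENCODE M21 and in RefSeq. The annotated piRNA thus starts 1 nt before base 1 of Snord21 and ends at its base 28. With that extra base, the whole sequence matches the retained-intron transcript of Rpl5 and not the snoRNA entry. In both coding transcripts of Rpl5 that span it the fragment lies in an intron. Its 28-nt tag (gccaatGATGAcaccacactaaCTGAgc), which lacks the extra base, matches bases 1 to 28 of Snord21 exactly. It is called the Snord21 fragment from here on. By position all 5 are snoRNA fragments, with this 1 base as the only part outside a GENCODE snoRNA entry.

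mmu_piR_030130 differs from the fragments of Snord57, Snord15a and Snord21 in where it lies. It is at chr2:144265981-144266008 (minus strand), in an intron of both spanning transcripts of Snx5, a sorting nexin gene, and covers bases 209 to 236 of the 238 of Snord17, stopping 2 nt before the 3′ end. Those 3 start at base 1 or 1 nt before it and end 43 to 117 nt short of the 3′ end. The snoRNA piRNAs of Snhg1 and Gas5 resemble the Snord17 fragment in this, since they start at bases 42 to 44 of entries of 72 to 76 bases and stop 2 to 5 nt before the 3′ end. These distances are by GENCODE. RefSeq annotates a Snord17 of 221 bases, in which the fragment covers bases 195 to 222 and so runs past the 3′ end. The snoRNA entries of Snord57, Snord21 and Snord17 are shown with the bases of the fragment in capitals, to contrast a 5′ and a 3′ placement.

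Snord57: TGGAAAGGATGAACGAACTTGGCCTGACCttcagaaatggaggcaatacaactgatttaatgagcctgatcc

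Snord21: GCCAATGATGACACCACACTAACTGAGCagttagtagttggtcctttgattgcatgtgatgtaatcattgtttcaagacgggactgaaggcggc

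Snord17: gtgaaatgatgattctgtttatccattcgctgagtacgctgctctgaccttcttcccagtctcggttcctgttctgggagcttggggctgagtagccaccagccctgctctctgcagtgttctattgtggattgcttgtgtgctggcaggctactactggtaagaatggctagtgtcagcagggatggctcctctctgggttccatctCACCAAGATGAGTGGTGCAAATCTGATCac

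Several CTGA motifs occur in each of these snoRNAs. In Snord57 they start at bases 24, 52 and 66, in Snord15a at 26, 86 and 140, and in Snord21 at 23 and 84. The fragment ends behind the CTGA nearest the 5′ end in all 3. In Snord17 the CTGA motifs start at bases 30, 44, 88 and 231, and the fragment ends behind the last.

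**Figure D1:**
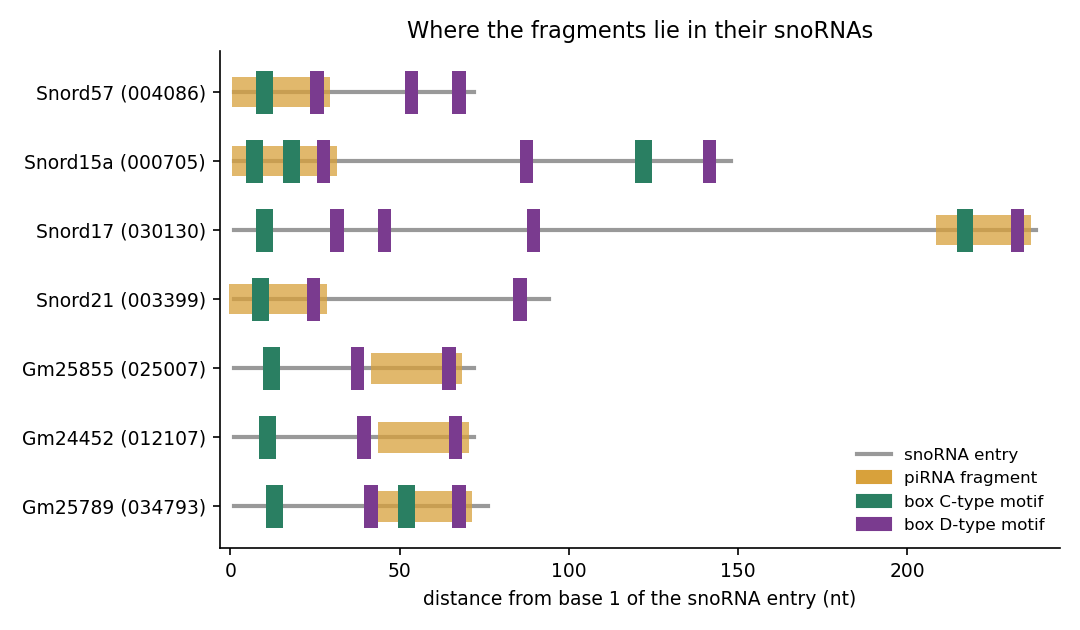
Position of each fragment (yellow) along its GENCODE M21 snoRNA entry (grey line; x axis in nt from base 1), with every GATGA (green, box C-type) and CTGA (purple, box D-type). The upper 4 rows are fragments described here and the lower 3 those of Snhg1 and Gas5; the Snord57, Snord15a and Snord21 fragments lie at the 5′ end and the other 4 towards the 3′ end, and all 7 end at a box D-type motif.

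In all, 244066 control and 359871 exposed reads were assigned to piRNAs, and a 5S ribosomal RNA fragment, mmu_piR_000691, took most of both. Levels are given per 1000000 piRNA reads of a library (CPM), so 1 read counts for 4.10 CPM in the control and for 2.78 CPM after exposure. The 5 snoRNA fragments together had 3432 control and 3785 exposed reads, or 1.41% (1.36 to 1.45) and 1.05% (1.02 to 1.09) of the libraries. Nearly all of these were the Snord57 fragment: without it the other 4 held 0.0422% and 0.0486%. Tags are whole fragments, so reads of different members are compared without a length correction.

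The Snord57 fragment had 3329 control and 3610 exposed reads, which is 13640 CPM (13180 to 14111) and 10031 CPM (9707 to 10364). It ranked 5 among all piRNAs by mean CPM and lay far above the other 4 in both libraries. The Snord17 fragment came next in the control, with 55 reads and 225 CPM (170 to 293). Its exposed reads numbered 36, or 100.04 CPM (70.1 to 138). The Snord15a fragment had 23 and 69 reads, 94.2 CPM (59.7 to 141) and 192 CPM (149 to 243). The Snord21 fragment had 21 and 65 reads, 86.0 CPM (53.3 to 132) and 181 CPM (139 to 230). The Snord1a fragment, with 4 and 5 reads, stood at 16.4 CPM (4.47 to 42.0) and 13.9 CPM (4.51 to 32.4), where a difference was not detectable at this depth.

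The order of the scarcer fragments differed between the libraries. In the control it was Snord17, Snord15a, Snord21 and Snord1a, and in the exposed library Snord15a, Snord21, Snord17 and Snord1a. Snord15a and Snord21 are neighbours in both, and their intervals overlap in both. The intervals of Snord17 lay above those of Snord15a and Snord21 in the control and below them in the exposed library. The Snord1a interval lay below those of the other 4 in both libraries.

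**Figure D2:**
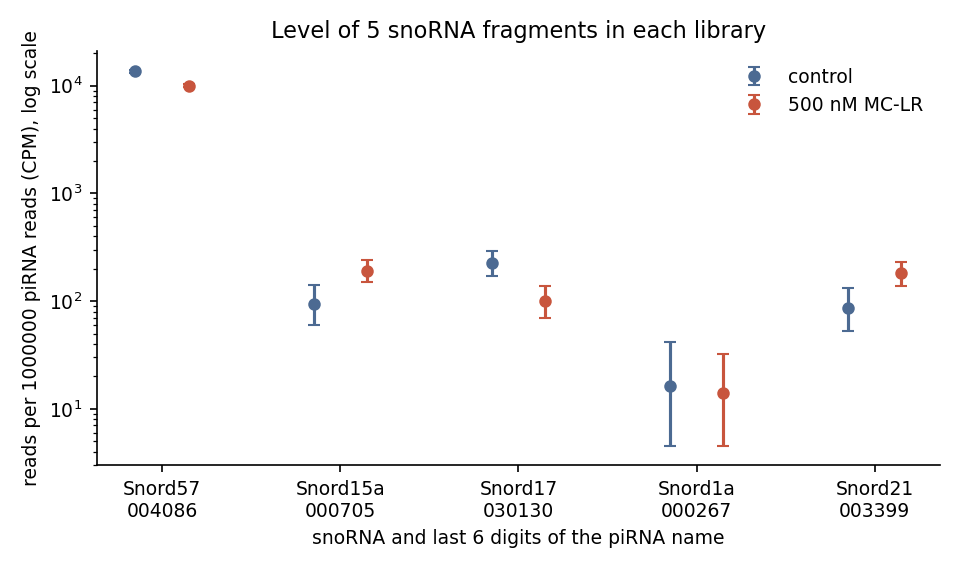
Level of each of the 5 fragments in the control library (blue) and the 500 nM MC-LR library (red), in reads per 1000000 piRNA reads on a log axis, with 95% Poisson intervals of the count in 1 library each. The Snord57 fragment stands at 13640 and 10031 CPM and the other 4 at 13.9 to 225 CPM; the Snord17 point is higher in the control, and the Snord15a and Snord21 points are higher in the exposed library.

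Ratios of CPM, MC-LR over control, are the values the members were chosen by. A piRNA was called higher or lower here if it had at least 10 reads in a library, a ratio of at least 2 or at most 0.5, and an interval that leaves out 1. Of the 43 piRNAs with 10 reads in a library, 3 were higher (6.98%) and 8 lower (18.6%), and 4 of the 5 members had enough reads. This balance turned with the scaling, to 5 higher and 3 lower with DESeq2 or edgeR TMM factors and to 5 higher and 2 lower with totals that leave out the most abundant piRNA or the 10 most abundant. The Snord15a fragment, at 2.03 (1.25 to 3.42), and the Snord21 fragment, at 2.10 (1.27 to 3.62), were among the higher ones. The Snord17 fragment, at 0.444 (0.283 to 0.688), was among the lower ones, and the Snord57 fragment, at 0.735 (0.701 to 0.771), met neither limit. The median log2 ratio of the 4 members was 0.29, against -0.40 over the 43. Since these values chose the members, nothing is read from the counts.

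Just inside the limits stood mmu_piR_000705 itself, at 2.03, and mmu_piR_038322, at 0.472 (0.306 to 0.724). The uncalled piRNAs farthest out were mmu_piR_000958, at 3.73 (0.814 to 34.6), and mmu_piR_000622, at 0.370 (0.112 to 1.09), both held back by their intervals.

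The direction for Snord57 turned with the scaling, and the call for Snord17 ended with it. Against the reads outside mmu_piR_000691, the ratio was 1.06 (1.01 to 1.11) for Snord57 and 0.638 (0.407 to 0.988) for Snord17, while Snord15a stood at 2.92 (1.80 to 4.91) and Snord21 at 3.01 (1.82 to 5.19). With edgeR TMM factors the Snord57 ratio was 0.968 (0.923 to 1.02) and the Snord17 ratio 0.584 (0.373 to 0.906).

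**Figure D3:**
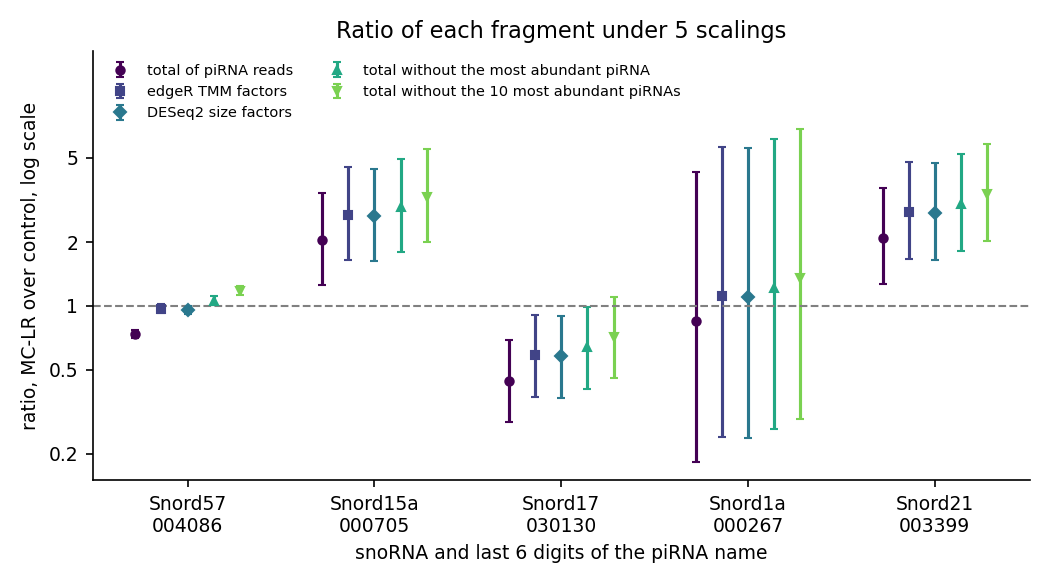
Ratio of each fragment, MC-LR over control (log axis, dashed line at 1), under 5 scalings, with 95% intervals of counting error. Snord15a and Snord21 lie above 2 under all 5, Snord17 lies below 1 under all 5 with an interval that reaches past 1 in the total without the 10 most abundant piRNAs, and Snord57 moves from 0.735 to 1.18.

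Levels set against mmu_piR_004086 do not depend on the total of piRNA reads. They use the reads by which the members were chosen and are a description. For every 100 reads of the Snord57 fragment, the control held 0.691 reads of the Snord15a fragment and the exposed library 1.91. This is a ratio of 2.77 (1.70 to 4.66). The Snord21 fragment had 0.631 and 1.80, a ratio of 2.85 (1.72 to 4.93). The Snord17 fragment had 1.65 and 0.997, a ratio of 0.604 (0.384 to 0.938). The Snord1a fragment had 0.120 and 0.139, a ratio of 1.15 with an interval too wide to place it (0.248 to 5.81). With full-length tags only, the ratios were 1.30 (0.529 to 3.20) for Snord15a and 0.891 (0.361 to 2.20) for Snord21. For Snord17 it was 0.370 (0.169 to 0.801).

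Set against each other, Snord15a and Snord21 stood in a similar proportion in both libraries, and Snord17 did not. There were 91.3 Snord21 reads for every 100 Snord15a reads in the control and 94.2 in the exposed library, a ratio of 1.03 (0.493 to 2.17). That interval still allows a difference of 2-fold in either direction. For every 100 Snord15a reads there were 239 Snord17 reads in the control and 52.2 in the exposed library, a ratio of 0.218 (0.110 to 0.429). Snord21 against Snord17 gave 38.2 and 181, a ratio of 4.73 (2.37 to 9.54). The members were chosen by their ratios between these libraries, so these contrasts are in part built into the choice.

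The Snord57 fragment itself stood close to the abundant snoRNA piRNAs of Snhg1 and Gas5. For every 100 reads of those 3 together there were 46.3 Snord57 reads in the control and 44.5 in the exposed library, a ratio of 0.961 (0.907 to 1.02). Singly against Snord57, mmu_piR_025007 had a ratio of 1.05 (0.983 to 1.11), mmu_piR_012107 of 0.947 (0.860 to 1.04) and mmu_piR_034793 of 1.09 (1.005 to 1.19). Outside the snoRNAs, the piRNAs with the CPM ratio most like that of Snord57, among 15 with at least 50 reads in a library, were mmu_piR_000818 and mmu_piR_002643, both at 0.756, and mmu_piR_000935 at 0.710. Their log2 ratios were within 0.051 of that of Snord57 over the 2 libraries, which is a likeness of 2 points only.

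Besides the members and those 3, 6 detected piRNAs overlap a snoRNA or scaRNA entry on its strand, and 3 of these 6 are also annotated as miRNA hairpins. The hairpin piRNAs had CPM ratios of 0.549 (0.272 to 1.09) in Scarna3a, 0.852 (0.759 to 0.956) in Mir1839 and 5.09 (1.18 to 45.8) in Mir3068. The last, mmu_piR_035888, had 2 and 15 reads and was called higher. The other 3 lie in Snord2, Snord85 and Gm22980, with CPM ratios of 0.882 (0.693 to 1.13), 0.710 (0.522 to 0.967) and 1.58 (0.571 to 5.02). Of the 11 piRNAs in snoRNA entries that are not hairpins, the 10 of at least 26 nt held a CTGA within their last 6 nt. The 25-nt piece of Gm22980 held none. The limit of 26 nt was not set in advance and falls just above that piece.

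How the fragments end was read from the tags, the distinct sequences under each piRNA, which the choice of members had not used directly. All tags in the tables are 0 to 3 nt shorter than their piRNA, so up to 10 forms of a piRNA can be seen, and longer or much shorter pieces cannot. No tag of the 5 members also fits another detected piRNA (0 such tags).

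The 3′ ends of the members were nearly uniform. Reads that ended at the annotated 3′ end made up 98.7% (98.2 to 99.0) of member reads in the control and 98.9% (98.5 to 99.2) in the exposed library. In the Snord17, Snord1a and Snord21 fragments this share was 100% in both, over 55 and 36, 4 and 5, and 21 and 65 reads. In the Snord15a fragment it was 100% of 23 control reads and 98.6% of 69 exposed reads (92.2 to 99.96), with 1 read a base shorter. In the Snord57 fragment it was 98.6% (98.2 to 99.0) and 98.9% (98.5 to 99.2). None of these differences was called in the 4 members with at least 10 reads in both libraries; Snord1a has too few. Over the 33 piRNAs with at least 10 reads in both libraries, 12.1% had a called difference at the 3′ end, here an odds ratio of at least 2 or at most 0.5 with an interval that leaves out 1. Such 3′ ends were not particular to the members. The share was 99.6% and 99.1% in mmu_piR_025007, where the difference was called. It was 99.0% and 99.3% in mmu_piR_034793, and 90.6% and 92.9% in mmu_piR_012107.

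The 5′ ends varied far more from member to member. In the snoRNA piRNAs of Snhg1 and Gas5, 93.9% to 98.7% of reads began at the annotated 5′ end. The Snord57 fragment was almost always 1 base shorter at its 5′ end than annotated. Its 28-nt tag, ggaaagGATGAacgaacttggcCTGAcc, had 3257 of 3329 control reads, 97.8% (97.3 to 98.3), and 3523 of 3610 exposed reads, 97.6% (97.0 to 98.1). The annotated 29-nt sequence had 19 and 32 reads, 0.571% (0.344 to 0.890) and 0.886% (0.607 to 1.25). The form 1 base shorter at both ends had 44 and 39 reads, and the other 4 forms had 11 reads or fewer in each library. Of its 7 forms, 5 were seen in both libraries.

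The Snord15a fragment occurred in 2 main forms. The annotated 31-nt sequence had 16 control and 35 exposed reads, 69.6% (47.1 to 86.8) and 50.7% (38.4 to 63.0). The 30-nt form without the 5′ base, ttcGATGAagaggtGATGAcgagtCTGAgt, had 7 and 33 reads, 30.4% (13.2 to 52.9) and 47.8% (35.6 to 60.2). The 5′ shares of the 2 libraries overlap within their intervals, with an odds ratio for the annotated 5′ end of 0.477 (0.148 to 1.43).

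Of the 5 members, the Snord21 fragment differed most between the libraries in its share at the annotated 5′ end. The annotated 29-nt sequence had 18 control and 27 exposed reads, 85.7% (63.7 to 97.0) and 41.5% (29.4 to 54.4). The 28-nt form, which starts at base 1 of Snord21, had 3 and 33 reads, 14.3% (3.05 to 36.3) and 50.8% (38.1 to 63.4). A 26-nt form starting at base 3 had 0 control reads, which allows a share of up to 16.1%, and 5 exposed reads, 7.69% (2.54 to 17.0). The odds ratio for the annotated 5′ end was 0.118 (0.0208 to 0.475), a difference of -44.2 percentage points, and it was the only one called of the 8 end comparisons over the 4 members with at least 10 reads in both libraries. Of the 33 piRNAs with at least 10 reads in both libraries, 4 had a called difference at the 5′ end (12.1%), so such differences were not particular to this fragment.

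Split by form, the shortened Snord21 forms were higher after exposure, and the ratio of the annotated form depended on the scaling. The 29-nt form had 73.8 control CPM and 75.0 exposed CPM, a ratio of 1.02 (0.540 to 1.96), and 1.32 to 1.63 under the other 4 scalings, with intervals that all include 1. The shortened forms together had 3 and 38 reads, or 12.3 and 106 CPM, a ratio of 8.59 (2.73 to 43.5), and 11.2 to 13.8 under the other 4. For Snord15a the 31-nt form had a CPM ratio of 1.48 (0.800 to 2.87) and the shortened forms, with 7 and 34 reads, one of 3.29 (1.44 to 8.81). Under the other 4 scalings the 31-nt form stood at 1.93 to 2.38, with intervals above 1. The Snord17 fragment went the other way, since its annotated 28-nt form carried its lower level. That form had 53 and 33 reads, with 0.422 (0.265 to 0.664) as its CPM ratio and 0.549 to 0.677 under the other 4 scalings, and made up 96.4% (87.5 to 99.6) and 91.7% (77.5 to 98.2) of its reads. Its shortened forms had 2 and 3 reads. The Snord1a fragment had its annotated 32-nt form alone. These splits by form use the same reads as the ratios above and are a description.

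**Figure D4:**
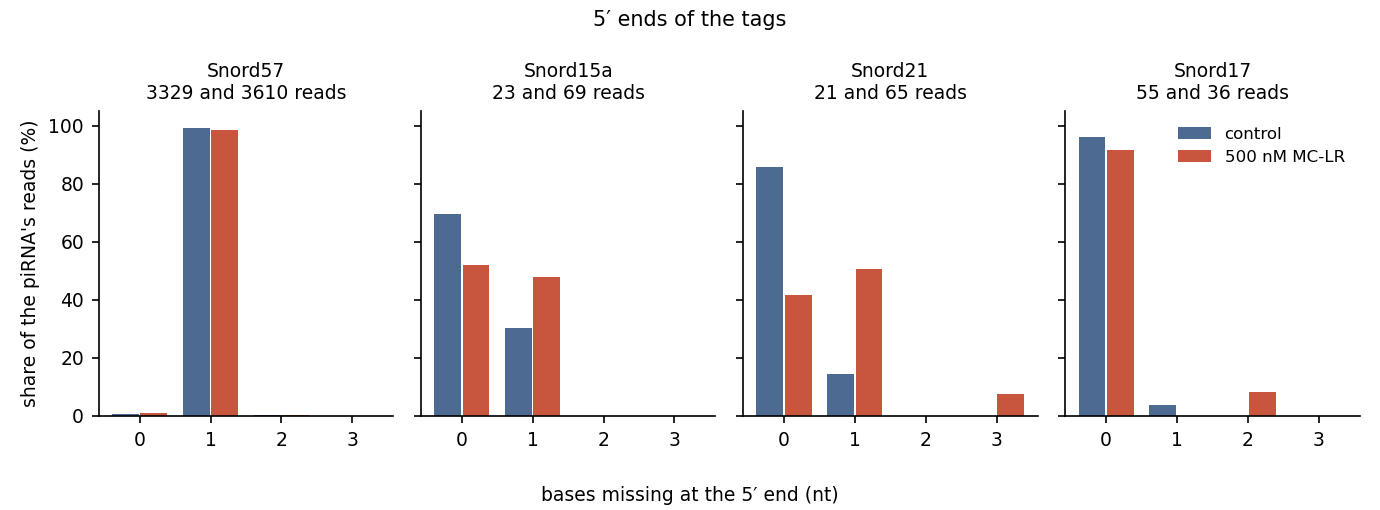
Share of each fragment's reads (y axis, %) by the number of bases missing at the 5′ end (x axis, nt), in the control (blue) and the 500 nM MC-LR library (red), with the reads behind each panel in its title. Snord57 reads almost all lack 1 base in both libraries; Snord21 reads with the annotated 5′ end make up 85.7% of the control and 41.5% of the exposed library.

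The first base of the reads depends on the form and on which fragment the reads come from. Over the 5 members a first-base U was carried by 1.28% (0.933 to 1.72) of control reads and 2.48% (2.01 to 3.03) of exposed reads, low because the leading Snord57 tag starts with G. Without Snord57 the shares were 24.3% (16.4 to 33.7) and 34.3% (27.3 to 41.8). The make-up of these reads differed, since the Snord17 fragment, with 0 reads starting with U, gave 53.4% of them in the control and 20.6% in the exposed library. Had each fragment kept its control share of U, the exposed reads would have held 43.8% without Snord57 and 2.57% over all 5. These figures carry no interval and lean on few control reads, 21 of them for Snord21. The first lies above the measured interval and the second within it. What lies behind the difference was not tested. In Snord21 the loss of the 5′ base removes the U, and the share went from 85.7% to 41.5%. In Snord15a the loss of the 5′ base exposes a U, and the share went from 30.4% to 47.8%. An A at position 10, typical of secondary piRNAs, was carried by 0.758% (0.495 to 1.11) and 1.32% (0.982 to 1.74) of member reads. With Snord57 left out, these shares were 17.5% (10.7 to 26.2) and 20.6% (14.8 to 27.3). Most of these reads were of the Snord15a fragment, in which 69.6% (47.1 to 86.8) and 52.2% (39.8 to 64.4) carried this A. The Snord21 and Snord1a fragments had 0 such reads.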

How the data were processed

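Per the labels' protocols, RNA was extracted with TRIzol and libraries were made by the sequencer maker's standard procedure. The authors deposited raw counts, 1 table of reads per annotated piRNA and 1 of reads per distinct sequence (tag) for each library. The submitters' processing notes name build mm8. For the aligner, the trimming, the mismatches allowed and the source of the piRNA names, the entry is "not given in the sources used here". Tag counts summed to the piRNA counts with 0 disagreements.

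CPM is reads per 1000000 piRNA reads. Intervals (95%) are Poisson for a CPM, Clopper-Pearson for shares and CPM ratios, and exact conditional intervals for ratios of ratios and odds ratios. With 1 library per group no test was made. Calls need at least 10 reads, a fold of 2 and an interval without 1. Statistics were tested on simulated data.

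Sequences were matched to GENCODE M21 transcripts; snoRNA entries overlapping by at least 15 nt on the same strand were taken from its coordinates. A genome was not used here, so other copies outside exons were not searched. Symbols and a second snoRNA annotation came from RefSeq (GRCm38.p6). The piRNAs named are the 5 members, those of Snhg1 and Gas5, other snoRNA piRNAs, and the 3 nearest mmu_piR_004086 in log2 ratio; piRNAs beside the call limits were named after their values were seen. Members and lists were chosen with earlier results of these data known, and the use of snoRNA coordinates and the motif GATGA were chosen after seeing the data. The CTGA window of 6 nt and the length limit of 26 nt were not set in advance. Software was Python 3.11.15, scipy 1.17.1, matplotlib 3.10.9, R 4.3.3, edgeR 4.0.16 and DESeq2 1.42.0, the last pair for scale factors only. The sequence and position of mmu_piR_000267 are not reported here.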

Additional observations from a re-analysis of the deposited data

How the results depend on the processing

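No paired analysis was possible because neither group has a second library. The Snord57 ratio of 0.735 became 0.956 with DESeq2 size factors, 0.968 with edgeR TMM factors, 1.06 against the total without the most abundant piRNA and 1.18 with the 10 most abundant piRNAs left out of the total. The Snord17 ratio of 0.444 became 0.577, 0.584, 0.638 and 0.711 in the same order, each past the limit of 0.5. The factor that scales exposed to control reads was 1.47 for the total and 0.920 to 1.13 for these 4, which by construction raises each ratio. The ratios of Snord15a, Snord21 and Snord1a stayed within their intervals under all 4. The count of higher piRNAs, 3, became 5 under each of the 4 scalings. The count of lower piRNAs, 8, became 3 with DESeq2 and with TMM, 2 with both reduced totals and 5 with at least 50 reads, where fewer piRNAs can pass. Over all counts tried, Snord15a and Snord21 were among the higher ones. With tags of the full annotated length only, the level relative to mmu_piR_004086 rests on 19 and 32 reads of mmu_piR_004086. It became 1.30 (0.529 to 3.20) for Snord15a, 0.370 (0.169 to 0.801) for Snord17 and 0.891 (0.361 to 2.20) for Snord21. Full-length Snord21 tags over all tags of mmu_piR_004086, an alternative chosen after seeing the data, gave 1.38 (0.733 to 2.67). Of the other relative levels, 8 stayed within their intervals. No intervals were computed for the differences in end shares. Of 20 alternatives for them, 19 kept the sign of the difference or its value of 0. Dropping single-read tags moved the Snord15a difference at the 3′ end from -1.45 to 0 points. Of 24 ratios by form, computed under the 4 scalings after seeing the data, 23 stayed within their intervals, and the annotated Snord17 form moved to 0.677 without the 10 most abundant piRNAs. Depth limits Snord1a most, with 4 and 5 reads.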
